A study of Drosophila melanogaster and Drosophila virilis and Drosophila yakuba with 44 samples.

Results

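The ELAV family of Drosophila consists of 3 genes for RNA-binding proteins, elav, fne (found in neurons) and Rbp9, and it was described here across a compendium of 3′ end sequencing libraries. The members were chosen by name, as the rows elav, fne and Rbp9 of the Drosophila melanogaster gene count tables, which made 3 of 13458 genes. 3′-seq reads the polyadenylated ends of transcripts, 1 read per transcript end, so that its counts need no correction for length. Other differences between genes in how ends are counted can remain, and 3′-seq and RNA-seq diverged for fne, as given below. The D. melanogaster libraries comprised female heads, male and female carcasses, whole-body males and females of 2–5 days, testes, ovaries, embryos of 6 consecutive collection windows (the earliest 0–45′ and 45–90′, the latest 18–24 h) and 10 cell lines (gm2, mbn2, cmel1, BG3, mldmd16_c3, Dmd4, Dmd32, Dmd20, OSS and S2R+), and 3 total RNA-seq libraries were made from head, testis and ovary. Heads came from mated Canton S females of 2–5 days and were cut so that most of the ventral nerve cord was left out, whereas carcass still held that nerve cord and peripheral neurons. The labels give no mutation and no treatment for any sample. Each condition had 1 library, so that no gene was tested between conditions, and the intervals given are 95% intervals that cover counting error only.

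ELAV family proteins bind U-rich stretches of RNA through RNA recognition motifs. In fly neurons elav is the founding member and the most widely used marker of postmitotic neurons, and it acts on alternative splicing and on the choice of poly(A) site, where it favours long 3′ UTRs. Fne and Rbp9 are close relatives of Elav, with Rbp9 known both from adult neurons and from germline differentiation in the ovary.

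Counted reads ran between 1519235 and 15693295 in the 7 adult libraries, between 477958 and 9793900 in the cell lines and between 42379 and 5546261 in embryos. The 45–90′ library was by far the shallowest, and 1 read in it stood for 11.9 RPM (reads scaled to each 1000000 counted, with the trimmed mean of M-values, TMM), against a median floor of 0.636 RPM for 3 reads over the 23 libraries. Tissue labels were compared with marker lists. All 8 photoreceptor genes passed 5 RPM in head (median 1432 RPM), and all 5 testis germline genes did so in testis (median 50.5 RPM). Cp36, from a list of follicle cell genes, had 733 RPM in testis, where the median of that list was 7.84 RPM. The library labelled whole-body males went against its label in part. osk, which directs germ plasm assembly in the oocyte, had 334 RPM there, against 1.63 RPM in male carcass and 1.70 RPM in testis. All 8 ovary germline genes were above 5 RPM in that library, but 5 were so in testis and 2 in male carcass, where mei-P26 had 353 RPM. Their median was 124 RPM in it, 19.8 RPM in testis and 0.969 RPM in male carcass. The library labelled whole-body females had a photoreceptor median of 32.5 RPM but a mature neuron median of 0.246 RPM. Of the 12 neuron genes, 6 were at 0 reads there, among them brp, Gad1, Rdl and VAChT, which had no read in any library. In the same library 5 of the 12 had at least 5 RPM, with Snap25 highest at 38.4 RPM. Levels in those 2 libraries and at 45–90′ are given beside the others, and the embryo trend and the search for similar profiles, which used them, are given with and without them. In the marker lists, VAChT, mira and Adar were among 903 genes with no read in any D. melanogaster library of either assay, so a row of zeros in these tables does not show that a gene was silent.

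elav lies on chromosome X (dm6, positions 509235 to 523226, minus strand, FBgn0260400). Its level was highest in 6–12 h embryos, at 726 RPM from 3006 reads, where it ranked 202 of the 13458 genes. Among adult samples elav had 362 RPM in head, 58.4 RPM in male carcass, 22.8 RPM in female carcass, 7.42 RPM in testis and 7.40 RPM in ovary. These adult levels separated into head, carcass and gonads with no overlap of their counting intervals, and the 2 gonads could not be told apart. The library labelled whole males had 75.9 RPM and that labelled whole females 2.95 RPM. In the cell lines elav stayed within a narrow band, with 43.3 RPM in cmel1, 43.0 RPM in S2R+, 42.1 RPM in Dmd32, 42.0 RPM in OSS, 40.7 RPM in BG3, 35.9 RPM in Dmd4, 33.3 RPM in mbn2, 28.1 RPM in Dmd20, 20.2 RPM in mldmd16_c3 and 19.7 RPM in gm2. Each line was thus above both gonads, and the neighbours in that order overlapped throughout.

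fne lies on chromosome X as well (dm6, positions 12917477 to 12950417, plus strand, FBgn0086675). By 3′-seq it was the most abundant member in head, at 1463 RPM from 13700 reads, where it ranked 153 of all genes. Male carcass had 167 RPM, female carcass 39.6 RPM, testis 9.54 RPM and ovary 13.4 RPM of fne, so that head stood apart from every other adult sample. The library labelled whole males held 230 RPM and that labelled whole females 32.5 RPM. The cell lines were spread more widely for fne than for elav. They had 68.4 RPM in gm2, 67.8 RPM in mbn2, 63.3 RPM in BG3, 42.6 RPM in OSS, 39.6 RPM in Dmd4, 32.7 RPM in Dmd20, 29.5 RPM in S2R+, 13.8 RPM in mldmd16_c3, 6.96 RPM in cmel1 and 3.24 RPM in Dmd32. The lines with the least fne, cmel1 and Dmd32, were among those with the most elav.

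Rbp9 lies on chromosome arm 2L (dm6, positions 2954762 to 2968434, plus strand, FBgn0010263), and its pattern was that of an adult gene. Head had 367 RPM, male carcass 248 RPM, testis 174 RPM and female carcass 96.3 RPM, each apart from the next, while ovary had 5.90 RPM. The libraries labelled whole males and whole females had 136 RPM and 26.6 RPM. No embryo window passed 31.0 RPM, the level at 18–24 h. In the cell lines Rbp9 was highest in OSS, a line of ovarian somatic origin, at 14.6 RPM, and lowest in mbn2, at 0.392 RPM from 1 read, with a median of 4.20 RPM over the 10 lines.

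**Figure D1:**
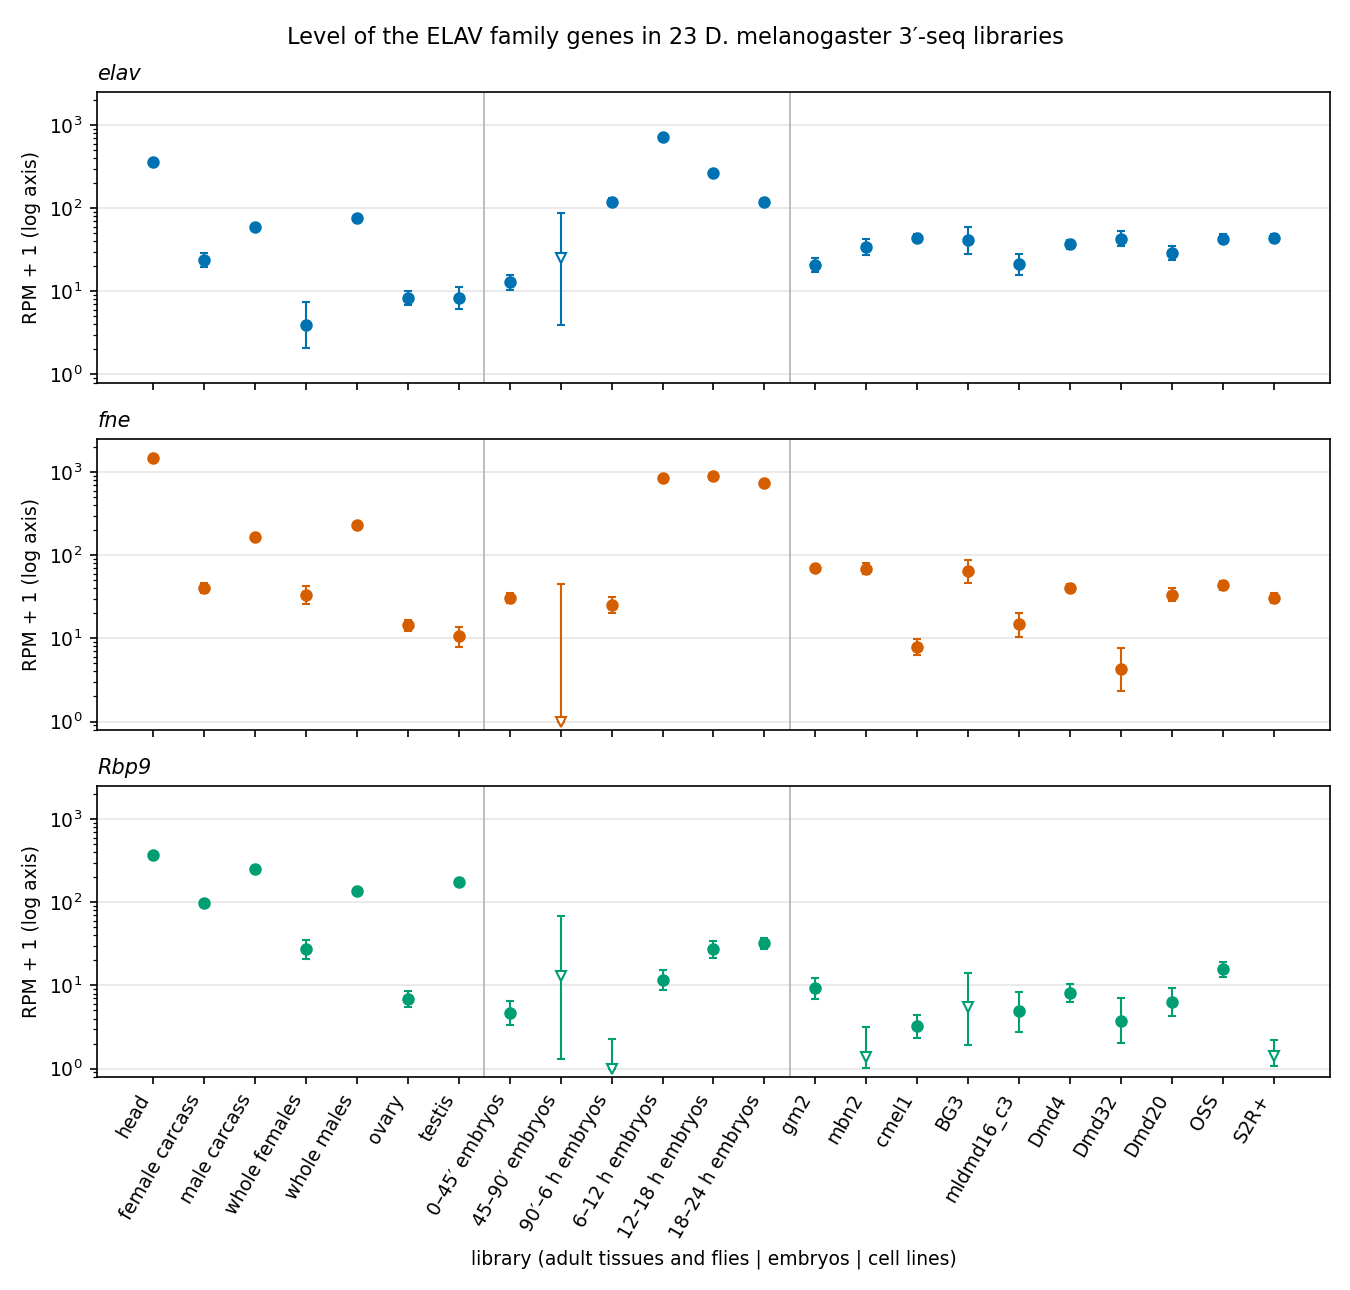
RPM + 1 of elav, fne and Rbp9 (log axes) in the 23 D. melanogaster 3′-seq libraries, with 95% Poisson intervals. Open triangles mark libraries with 3 reads or fewer of the gene. fne and Rbp9 are highest in head, at 1463 and 367 RPM, and elav is highest in 6–12 h embryos, at 726 RPM.

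Head was set against the other samples to ask how far the family followed the brain. A gene was compared where it had at least 5 RPM in 1 of the 2 libraries, and a difference of log2(RPM + 1) of 2 or more was counted as at least 4-fold. Against female carcass, elav was 15.8-fold higher in head (interval 13.0 to 19.5) and fne 36.9-fold higher (31.8 to 43.1), whereas Rbp9 was 3.81-fold higher (3.44 to 4.22) and lay just under the 4-fold line on the log2(RPM + 1) scale, at 1.92. This made 2 of 3 members at least 4-fold higher in head, beside 23% of all genes compared. Against male carcass the fold was 6.19 for elav and 8.76 for fne and only 1.48 for Rbp9 (1.40 to 1.56), again 2 of 3 members, beside 11.5% of all genes.

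Ovary and testis were compared next. Head exceeded ovary 48.9-fold for elav, 109-fold for fne and 62.2-fold for Rbp9, so that 3 of 3 members were at least 4-fold higher, beside 27.4% of all genes. Head exceeded testis 48.8-fold for elav and 153-fold for fne, but only 2.11-fold for Rbp9 (1.95 to 2.28), which left 2 of 3 members past 4-fold, beside 22.9% of all genes. Against 18–24 h embryos the order of the members turned round, since Rbp9 was 11.8-fold higher in head (10.02 to 14.0), elav 3.05-fold and fne 1.98-fold. There 1 of 3 members passed 4-fold, beside 14.7% of all genes. Against 6–12 h embryos, elav was at 0.498 of the embryo level in head (0.474 to 0.523), fne was 1.72-fold and Rbp9 34.5-fold higher, again 1 of 3 members past 4-fold, beside 25.9% of all genes. The 3 members passed 4-fold against the library labelled whole females too, beside 33.9% of all genes.

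Genes of mature neurons gave the scale for these differences. In the list of 12, which holds synaptic vesicle and active zone proteins, ion channels and transmitter enzymes, 11 genes could be compared, and all 11 were at least 4-fold higher in head than in female carcass, male carcass and ovary, 10 of 11 than in testis and 8 of 11 than in 18–24 h embryos. The median log2 difference of the list was 4.96 against female carcass, 3.46 against male carcass, 7.28 against ovary and 6.19 against testis, with the medians of all genes compared at 0.57, 0.13, -0.43 and -0.12. Against both carcasses and testis, elav and fne lay within 1.03 log2 units of the neuron list and Rbp9 lay 2.90 to 5.12 units below it. Against ovary, elav lay 1.84, Rbp9 1.54 and fne 0.61 units below the list. Against 18–24 h embryos, where the list median was 2.45, Rbp9 lay 1.07 units above it, and fne lay 1.46 and elav 0.85 units below it. In bulk samples, fewer neurons and less RNA per neuron cannot be told apart.

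**Figure D2:**
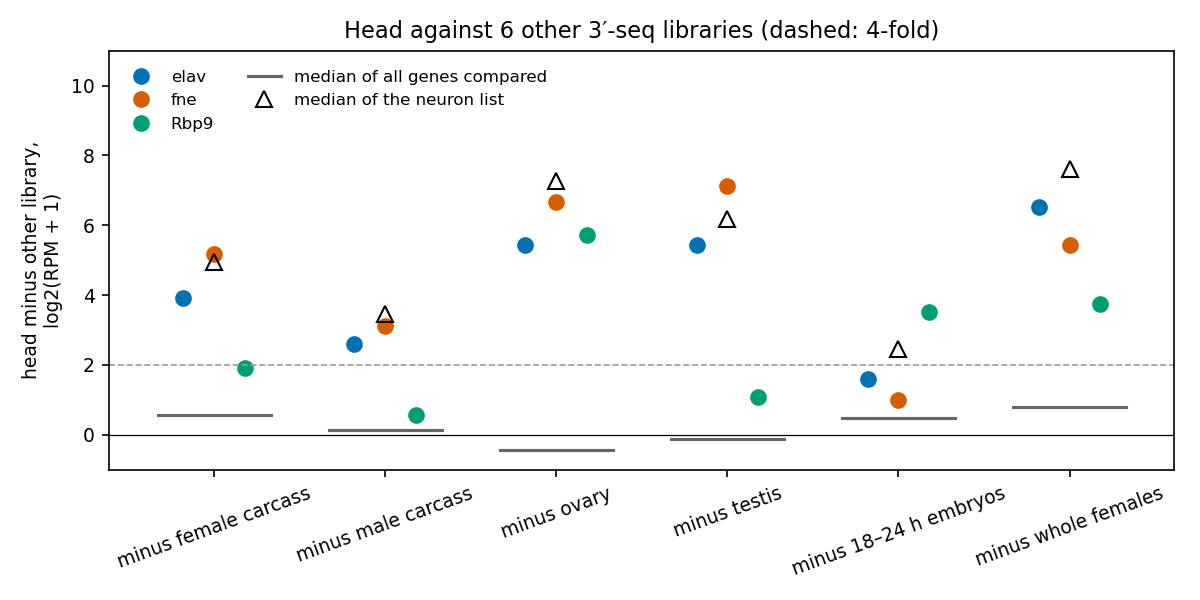
Difference of log2(RPM + 1) between head and 6 other 3′-seq libraries for elav, fne and Rbp9 (points), with the median of all genes compared (grey bars) and of the neuron list (triangles). Rbp9 lies below the dashed 4-fold line against female carcass (1.92), male carcass (0.56) and testis (1.07) and above elav and fne against 18–24 h embryos (3.52).

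Male carcass held more of each member than female carcass. elav was 2.56-fold higher (2.07 to 3.19), Rbp9 2.57-fold (2.32 to 2.86) and fne 4.21-fold (3.61 to 4.95), so that 1 of 3 members passed 4-fold, beside 11% of all genes. The log2 difference of fne was 2.05 with TMM and 2.00 with scaling to the library total, but the call was lost with DESeq2 size factors (1.71) and with TMM on genes that passed a filter on low counts (1.77). Neuron genes were higher in male carcass by a median of 1.58 on the log2 scale, glial genes by 1.20 and muscle genes by 0.95, with all genes at 0.44. The 12 neuron genes summed to 860 RPM in male carcass, against 276 RPM for females. repo, the transcription factor that defines glia, had 10.8 RPM in male carcass and was at 0 reads in that of females. Whether the part of the nerve cord in each dissection bears on the members was not tested.

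By 3′-seq, testis against ovary set Rbp9 apart from its relatives. Rbp9 was 29.5-fold higher in testis (23.0 to 38.4), whereas elav was at 7.42 RPM in testis and 7.40 RPM in ovary, and fne at 9.54 RPM in testis and 13.4 RPM in ovary, differences whose direction depended on the scaling. By RNA-seq fne was 31.1-fold higher in testis (4.17 to 1379), from 8 reads against 1 read in ovary. In 3′-seq 1 of 3 members was thus at least 4-fold higher in testis, beside 30.8% of all genes, a share near that of the members. The neuron list had a median of 8.37 RPM in testis and 3.43 RPM in ovary, and nSyb, the neuronal synaptobrevin, had 24.4 RPM in testis and 1.58 RPM in ovary. Rbp9 in testis was 20.8-fold above the neuron list median there, whereas in head it was 0.519 of it. Of 14 other RNA-binding proteins of the nervous system, 3 were at least 4-fold higher and 4 at least 4-fold lower in testis than in ovary, where lower calls made 18.5% of all genes, and the list had a median log2 difference of -0.92, with all genes at -0.04.

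The embryo windows asked when the members appeared. elav had 11.8 RPM at 0–45′, 119 RPM at 90′–6 h, 726 RPM at 6–12 h, 266 RPM at 12–18 h and 119 RPM at 18–24 h, with 2 reads in the 45–90′ library. It thus formed a peak at 6–12 h, with levels at 90′–6 h and 18–24 h whose intervals overlapped and whose order changed with the scaling, and it was already above its 0–45′ level at 90′–6 h. fne had 29.6 RPM at 0–45′, 24.4 RPM at 90′–6 h, 849 RPM at 6–12 h, 905 RPM at 12–18 h and 738 RPM at 18–24 h, with no read at 45–90′, where 3 reads would stand for 35.8 RPM and the interval reached 44.1 RPM. Its course was that of a step between 90′–6 h and 6–12 h and a plateau after it, within which the order of the windows changed with the scaling. The low fne levels at 0–45′ and 90′–6 h could not be checked by RNA-seq, since no RNA-seq library of embryos was analysed. Rbp9 had 3.67 RPM at 0–45′, 0 RPM at 90′–6 h, 10.6 RPM at 6–12 h, 26.4 RPM at 12–18 h and 31.0 RPM at 18–24 h, with 1 read at 45–90′.

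At 6–12 h, elav was 6.10-fold and fne 34.8-fold above the level at 90′–6 h, and Rbp9, with no read in the earlier library, was at least 10.3-fold higher when counted against a floor of 3 reads there, with 8.03 as the lower end of its interval. This put 3 of 3 members past 4-fold, beside 20.6% of all genes. From 6–12 h on the members parted. At 18–24 h elav was at 0.163 of its 6–12 h level (0.149 to 0.179) and counted as at least 4-fold lower, beside 9.44% of all genes, fne was at 0.870 and Rbp9 at 2.92 of their 6–12 h levels. On the log2(RPM + 1) scale the difference of Rbp9 was 1.46, and it reached 2.02 with DESeq2 size factors, which made it a call. The neuroblast list (dpn, ase, wor, mira, insc and pros, genes of neural stem cells) had its highest median at 6–12 h too, at 56.7 RPM, with 36.6 RPM at 90′–6 h and 4.19 RPM at 18–24 h. The glia list median was highest in that window as well, at 51.6 RPM, with 16.0 RPM at 90′–6 h. It stayed near that level afterwards, at 43.9 RPM at 12–18 h and 49.9 RPM at 18–24 h. Among embryos the medians of the lists of neural RNA-binding proteins and of ELAV family targets were also highest at 6–12 h. For the RNA-binding proteins the median was 244 RPM there and still 217 RPM at 18–24 h. The muscle list had a median of 207 RPM at 6–12 h and 1.72 RPM at 90′–6 h. The mature neuron list had medians of 0 RPM at 90′–6 h, 8.82 RPM at 6–12 h, 90.1 RPM at 12–18 h and 107 RPM at 18–24 h. elav and fne were thus at 726 and 849 RPM in the window in which nSyb was at 18.8 RPM and Syt1, the calcium sensor of vesicle release, at 13.3 RPM.

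**Figure D3:**
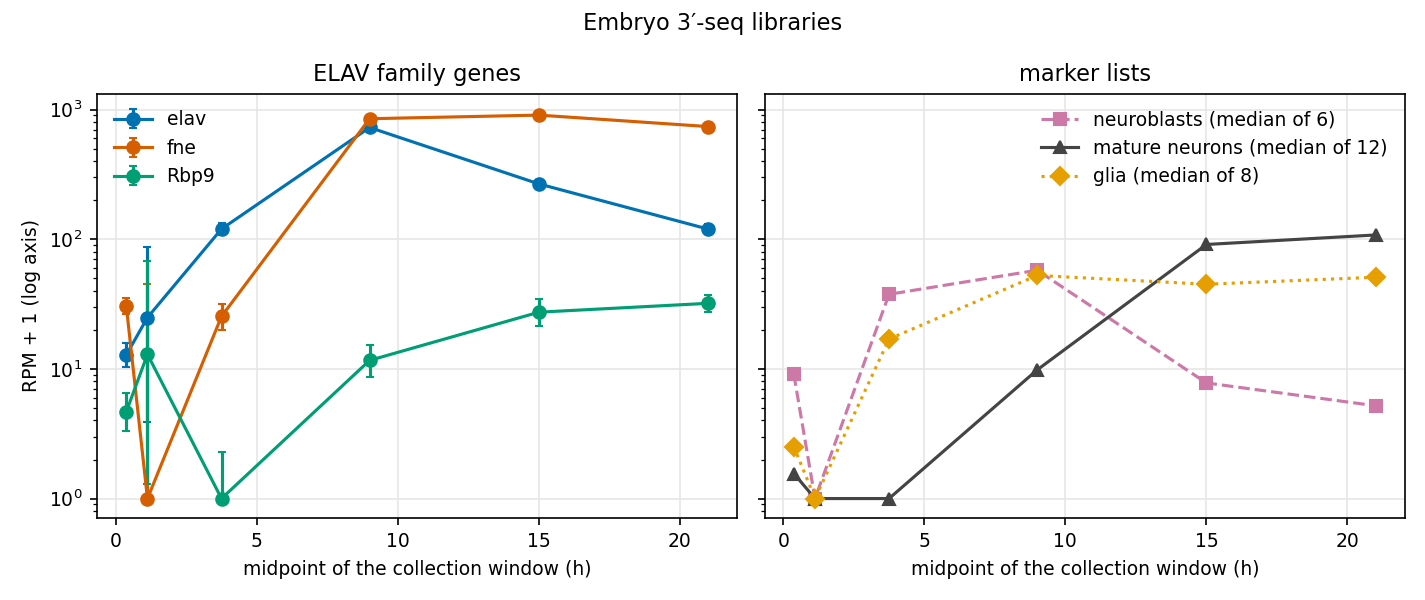
RPM + 1 (log axis) of the 3 genes with 95% Poisson intervals (left) and median RPM + 1 of the neuroblast, mature neuron and glia lists (right) against the midpoint of the collection window in hours. elav peaks at 6–12 h (726 RPM), the window in which the neuroblast (56.7 RPM) and glia (51.6 RPM) lists have their highest medians. The glia list is still at 49.9 RPM at 18–24 h. fne stays between 738 and 905 RPM from 6–12 h on.

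A monotone trend over the 6 embryo libraries was tested by exact permutation of log2(RPM + 1) against the window midpoint, two-sided, in a family of 3 tests with Benjamini-Hochberg adjustment. Spearman's rho was 0.60 for elav (exact p = 0.242, adjusted 0.242), 0.66 for fne (exact p = 0.175, adjusted 0.242) and 0.71 for Rbp9 (exact p = 0.136, adjusted 0.242). Pearson's r was 0.58 for elav (exact p = 0.228, adjusted 0.228), 0.80 for fne (exact p = 0.0667, adjusted 0.173) and 0.68 for Rbp9 (exact p = 0.115, adjusted 0.173). None passed the threshold, with 0.00278 the smallest p that 6 libraries allow. Without the 2 windows farthest from the median midpoint, 12–18 h and 18–24 h, r was 0.99 for elav, 0.82 for fne and 0.16 for Rbp9, each over 4 libraries, among them the 45–90′ library with its 1 read of Rbp9. Without the shallow 45–90′ library, Spearman's rho was 0.30 for elav, 0.60 for fne and 0.90 for Rbp9, and none passed the threshold.

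At a minimum of 5 RPM by 3′-seq, elav was counted in 10 of 10 cell lines, fne in 9 and Rbp9 in 4. For fne such values need care, since ovary and testis had 13.4 and 9.54 RPM by 3′-seq but 1 and 8 reads by RNA-seq. With a minimum of 1 RPM the count for Rbp9 became 8, and 7 lines had more than 3 reads of it. The neuron list median ran between 2.11 RPM in S2R+ and 24.5 RPM in Dmd4, and the photoreceptor median did not exceed 2.90 RPM in any line. Within single lines elav did not always go with the neuron genes. S2R+ had 43.0 RPM of elav but the lowest neuron list median, 2.11 RPM, with nSyb at 0.141 RPM. In it 5 of the 12 neuron genes still had at least 5 RPM, with Snap25 highest at 32.6 RPM. gm2, with a neuron list median of 23.1 RPM, had the lowest elav value of the lines, although fne was highest there, at 68.4 RPM. BG3, which derives from larval nervous system, had 40.7 RPM of elav (26.8 to 59.2), 63.3 RPM of fne (45.6 to 85.6) and 4.52 RPM of Rbp9 from 3 reads, within the range of the other lines for each member.

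Since 3′-seq counts ends, the 3 genes could be set as shares of their summed reads, with Wilson 95% intervals. The shares describe 3′-seq alone. By RNA-seq per kilobase of annotated exon, with a limit on these lengths given below, head had 73.3 RPM per kb of Rbp9. fne had 20.7 and elav 19.9 there. No RNA-seq library of embryos or cell lines was analysed here. fne took 66.8% (66.1 to 67.4) in head, with elav at 16.5% and Rbp9 at 16.7%. Rbp9 led in male carcass at 52.4% (50.9 to 53.8), in female carcass at 60.6% (57.0 to 64.2) and in testis at 91.1% (89.1 to 92.8). In the embryo fne led at 0–45′, with 65.6% (59.9 to 70.9) of 282 reads, elav led at 90′–6 h, with 83.0%, and fne led from then on, with 53.5% at 6–12 h, 75.6% at 12–18 h and 83.1% at 18–24 h. Rbp9 made 0.670% of the family at 6–12 h and 3.50% at 18–24 h. Among the lines elav was at 87.5% in Dmd32 and 82.5% in cmel1 but 20.4% in gm2. The summed level of the family was 2191 RPM in head, 1586 RPM at 6–12 h, 191 RPM in testis and 26.7 RPM in ovary, and between 37.8 RPM (mldmd16_c3) and 109 RPM (BG3) in the lines.

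**Figure D4:**
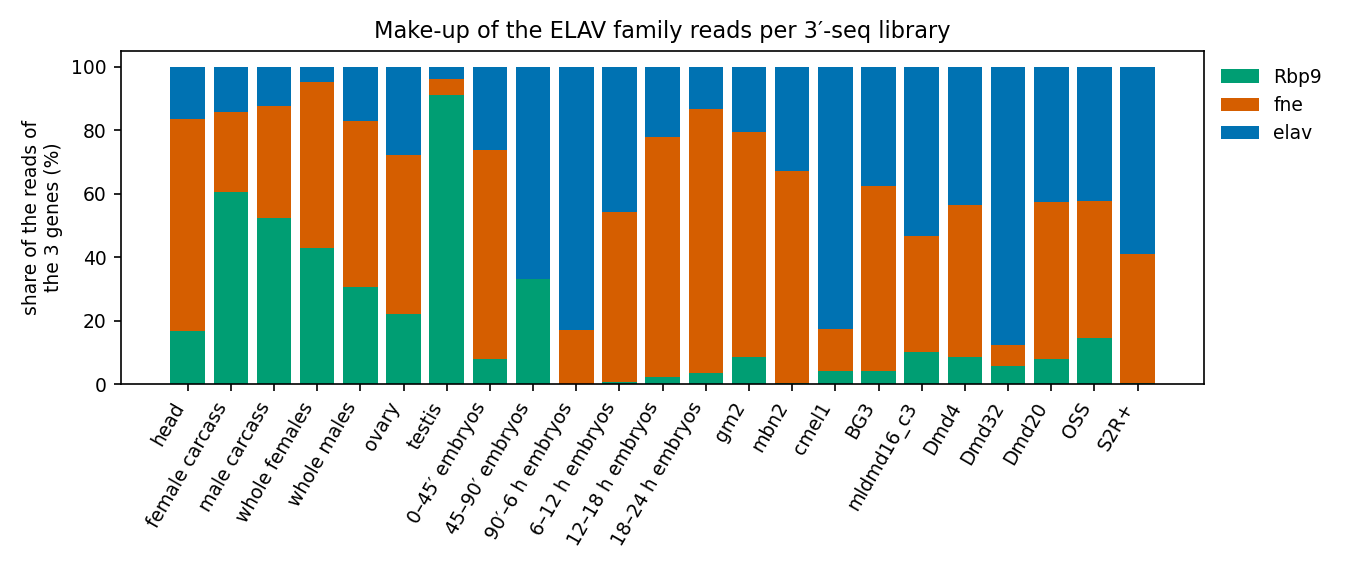
Share of elav, fne and Rbp9 in the summed reads of the 3 genes (percent, stacked bars) in each 3′-seq library. Rbp9 makes 91.1% in testis, fne 66.8% in head and 83.1% at 18–24 h, and elav 83.0% at 90′–6 h; the 45–90′ bar rests on 3 reads.

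Head, testis and ovary were also measured by total RNA-seq, which gave elav 213 RPM in head, 4.09 RPM in testis and 3.84 RPM in ovary. Rbp9 had 591 RPM in head, 241 RPM in testis and 5.59 RPM in ovary by RNA-seq, so that the level in testis was seen in both assays, at 43.1-fold above ovary by RNA-seq and 29.5-fold by 3′-seq. fne had 198 RPM in head by RNA-seq, but 0.414 RPM from 8 reads in testis and 0.0133 RPM from 1 read in ovary. In RNA-seq all 3 members were at least 4-fold higher in head than in ovary, beside 27.7% of all genes, 2 of 3 than in testis, beside 22.3%, and 1 of 3 (Rbp9) was so in testis against ovary, beside 31%.

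The assays diverged for fne. Its RPM by 3′-seq was 7.38-fold that by RNA-seq in head (7.18 to 7.59) and 23.0-fold in testis (10.7 to 56.5). In ovary the 152 reads of 3′-seq stood against 1 read of RNA-seq, a ratio of 1003 with an interval of 177 to 39890. On the log2(RPM + 1) scale these differences were 2.88 in head, 2.90 in testis and 3.83 in ovary, beyond the range of -1.93 to 2.25 that held the middle 90% of genes in the 3 tissues, whereas those of elav were 0.76, 0.73 and 0.79 and those of Rbp9 -0.69, -0.47 and 0.07. No RNA-seq library of the cell lines was analysed here. RNA-seq counts grow with transcript length. Per kilobase of annotated exon (10.7, 9.56 and 8.05 kb for elav, fne and Rbp9), head had 19.9, 20.7 and 73.3 RPM per kb of the 3 genes by RNA-seq, so that Rbp9 led there, while fne led by 3′-seq.

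**Figure D5:**
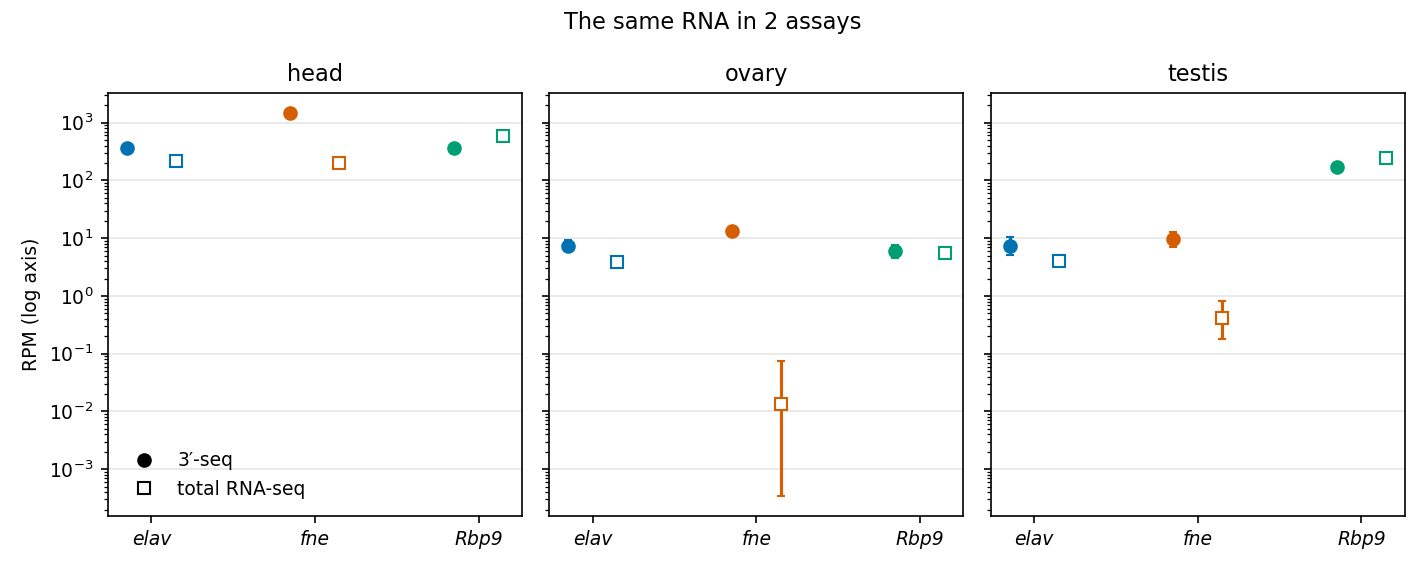
RPM (log axis) of each gene in head, ovary and testis by 3′-seq (filled circles) and total RNA-seq (open squares), with 95% Poisson intervals. The assays lie close for elav and Rbp9, while fne in ovary has 13.4 RPM by 3′-seq and 0.0133 RPM by RNA-seq.

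Neighbouring genes bear on how far these counts can be read, since the strand setting of the counting was not given in the sources used here. arg, which encodes arginase, overlaps 98.6% of the elav span, introns included, on the opposite strand. The exons of arg cover 1.24 kb, and their overlap with those of elav was not computed. arg had 63.5 RPM in head, 127 RPM in female carcass and 7.25 RPM at 6–12 h, where elav was highest. In the cell lines it had between 2.44 and 36.1 RPM. hec, a receptor gene on the opposite strand, has its 3′ end 18 nt beyond the 3′ end of fne. The counts used gene models extended at their 3′ ends, so the counted regions of fne and hec can lie closer or overlap. hec had 4.59 RPM in head and no read at 6–12 h. Ts, which encodes thymidylate synthase, overlaps the 3′ end of Rbp9 by 142 nt on the opposite strand. Ts had 0.641 RPM in head, 0.848 RPM in testis, 42.3 RPM in ovary and between 29.2 and 182 RPM in the cell lines, so that it was low where Rbp9 was high. As a description over the 23 libraries, which share tissues and differ in depth, r between Ts and Rbp9 was -0.77. Reads of each pair cannot be told apart where they overlap if strand was not used.

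Other RNA-binding proteins known from the nervous system were set beside the ELAV family. In a list of 14 (among them msi, Rbp6, pum, brat, Syp, mub, shep and the bru genes), 7 were at least 4-fold higher in head than in female carcass, 4 than in male carcass, 4 than in ovary with 1 lower, 7 than in testis with 3 lower, and 4 than in 18–24 h embryos. Over all genes the higher calls made 23% against female carcass, 11.5% against male carcass, 27.4% against ovary, 22.9% against testis and 14.7% against 18–24 h embryos, so that the share of the list against ovary was near that of all genes. Lower calls made 18.8% of all genes against ovary and 28.1% against testis. The list median was 634 RPM in head, 109 RPM in testis and 352 RPM in ovary, and 13 or 14 of the 14 were above 5 RPM in every cell line. Rbp6, a Musashi relative, had 1440 RPM in head, 188 RPM in male carcass, 41.8 RPM in testis and 19.1 RPM in ovary. bru3 had 851 RPM in head, 113 RPM in male carcass, 42.6 RPM in testis and 16.8 RPM in ovary. Both thus placed head over male carcass and male carcass over the gonads, as elav and fne did. Syp had 1455 RPM in head, 1315 RPM in male carcass, 2448 RPM in testis and 79.9 RPM in ovary, with testis far over ovary as for Rbp9. Other genes of the list differed, and bru1 was the highest of them in ovary, at 4219 RPM. In testis against ovary, 3 of the 14 were at least 4-fold higher and 4 at least 4-fold lower, beside 30.8% and 18.5% of all genes.

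Genes linked to regulation by ELAV family proteins in flies were compared in the same way, beside the same shares of higher calls over all genes as for the RNA-binding proteins. Of a list of 11, 2 of 10 compared were at least 4-fold higher in head than in female carcass and 1 lower, 1 of 9 than in male carcass, 2 of 10 than in ovary with 1 lower, and 3 of 10 than in testis with 1 lower. Against both carcasses, ovary and testis, the share of the list called higher was thus near that of all genes. None of 10 was higher and 1 was lower in head than in 18–24 h embryos. In head 5 of 10 were higher and 1 lower than in the library labelled whole females, where higher calls made 33.9% of all genes. Set against female carcass, the median log2 difference of the list was 1.60, with all genes at 0.57. Lower calls made 10.6% of all genes against whole females, 8.22% of all genes against female carcass and 10.7% against 18–24 h embryos. The median of the list was 227 RPM in head, 164 RPM at 6–12 h and 99.1 RPM in ovary. Nrg, the neuronal adhesion molecule neuroglian and a splicing target of Elav, had 605 RPM in head, 378 RPM in male carcass, 177 RPM in female carcass and 1145 RPM at 6–12 h. The tables hold counts per gene and so carry no splice or 3′ UTR isoforms of these genes.

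Genes with the most similar profile were sought among 11475 genes with at least 10 RPM in a library, by Pearson's r of log2(RPM + 1) over the 23 libraries. For elav these included skl (r = 0.80), how (0.79), repo (0.79) and Toll-6 (0.79). For fne they were Appl (0.93), the fly relative of the amyloid precursor protein, scrt (0.88), fw (0.88), CG9782 (0.88) and CG14989 (0.86). For Rbp9 they were CG34120 (0.92), emp (0.91), CG2082 (0.91), CG5065 (0.91) and CG9451 (0.90), and emp was higher in testis, at 982 RPM, than in head, at 595 RPM. The members themselves were less alike, at 0.68 between elav and fne, 0.43 between fne and Rbp9 and 0.12 between elav and Rbp9. The libraries share tissues and differ in depth, so these values are descriptions. Of these 15 nearest genes, 11 were found again without the libraries labelled whole males and whole females, and 7 without those of 45–90′ and BG3.

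In the other species, 1 member could be matched by name in each table. In D. yakuba, fne had 539 RPM in female head, 369 RPM in 0–12 h embryos, 347 RPM in 12–24 h embryos, 2.67 RPM in testis and 0.721 RPM in ovary by 3′-seq. Head was 748-fold above ovary (379 to 1734) and 202-fold above testis (120 to 369), while the direction against both embryo windows changed with the scaling. By RNA-seq the same species had 186 RPM in head, 2.20 RPM in testis and 0.0570 RPM from 3 reads in ovary. The ovary level of 3′-seq in D. yakuba, 0.721 RPM from 8 reads, was under the 13.4 RPM of D. melanogaster, each scaled within its own table. RNA-seq did not show this order, since D. melanogaster ovary had 0.0133 RPM from 1 read. With 3 reads or fewer of fne in either ovary by RNA-seq, the species could not be ranked by that assay.

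In D. virilis, elav had 30.8 RPM in female head, 1.15 RPM in testis and 3.24 RPM in ovary by 3′-seq. The embryos had 29.6 RPM at 0–12 h, 66.3 RPM at 12–24 h, 18.0 RPM at 24–36 h and 19.1 RPM at 36–48 h. The highest level was in the 12–24 h embryos, 2.16-fold above head, and in D. melanogaster too an embryo window, 6–12 h, was higher than head. Head was 9.48-fold above ovary (6.95 to 13.2) and 26.6-fold above testis (14.3 to 56.1). By RNA-seq, D. virilis had 42.3 RPM in head, 1.69 RPM in testis and 3.65 RPM in ovary.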

How the data were processed

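Gene counts were used as deposited. The submitters' processing notes name Trimmomatic 0.36 without its role. Per the authors' methods, total RNA-seq was aligned with HISAT2 to dm6, dyak3 and dvir3, and counts per gene were made with featureCounts on gene models extended at their 3′ ends. The aligner of 3′-seq and the strand setting were not given in the sources used here. Whole-read counts were scaled to RPM within each table by TMM (edgeR 4.0.16, R 4.3.3), with RNA-seq apart from 3′-seq. Counts and count ratios carry exact Poisson or conditional binomial 95% intervals, and shares carry Wilson intervals. Differences are of log2(RPM + 1), with a pseudocount of 1 RPM. Only the embryo trend was tested (exact permutation, scipy 1.17.1). Alternatives were scaling to the library total, DESeq2 1.42.0 size factors, TMM on genes with at least 10 counts in at least 3 libraries, other pseudocounts and thresholds, and left-out libraries. Functions were checked on simulated counts. Positions and exon lengths are from Ensembl release 115. The named genes are the 3 members, genes of the lists with large differences or extreme levels, the 5 nearest genes of each member (1 of them is not reported here), and the neighbours arg, hec and Ts, added after their values were seen. Members and lists were chosen with earlier results of these data known.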

Additional observations from a re-analysis of the deposited data

How the results depend on the processing

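No paired analysis was possible because each condition had 1 library and the labels give no shared replicate numbers, and for the same reason no replicate could be left out. The 3 other scalings shifted the median log2 difference of head against the 6 other samples by between -1.09 and 1.08, and member levels by factors of 0.524 (ovary) to 1.98 (45–90′). The directions that turned with the scaling were elav and fne in testis against ovary, fne at 12–18 h and at 18–24 h against 6–12 h, fne in D. yakuba head against both embryo windows and elav in D. virilis head against 0–12 h embryos. Rbp9 in ovary, at 0.07 between 3′-seq and RNA-seq, turned too. The counts of members past 4-fold in head and the trends stayed on their side under the alternatives run. Under each scaling elav was highest at 6–12 h. Shares do not depend on the scaling, and only left-out libraries were tried for them. Their extremes lay in libraries that were kept, except the lowest fne share, 0 of 3 reads at 45–90′. These runs thus could not test the extremes. The 4-fold calls of fne between carcasses and of Rbp9 between 18–24 h and 6–12 h changed with the scaling. The libraries labelled whole males and whole females and the 45–90′ library were not the highest for any member. Leaving them out, a choice made after seeing the data, thus could not change that 2 members were highest in head. Rbp9 passed in 4 cell lines at 5 RPM, in 8 at 1 RPM and in 7 above 3 reads. Of the 15 nearest genes, 5 were found again by Spearman, 7 without head and 7 without the 45–90′ and BG3 libraries, and Appl was found in all 9 alternatives.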
